A study of Mus musculus with 16 samples.

Results

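The 10 genes described here belong to the lipid droplet and to triglyceride breakdown, and were followed through mouse kidneys with and without Vhl deletion and with and without muscle-derived acute kidney injury. They were the perilipins Plin2, Plin3, Plin4 and Plin5, the lipase gene Pnpla2, the lipase inhibitors G0s2 and Hilpda, the synthesis enzyme gene Dgat2, the fatty acid receptor gene Cd36 and Angptl4, an inhibitor of lipoprotein lipase. Members were chosen by gene symbol, with earlier results of these data known, and all 10 had exactly 1 row in the table, out of 19938 genes tested. Values are log2 levels, so a difference of 1 is a doubling, and a gene was called changed at a Benjamini-Hochberg adjusted p under 0.05 in limma, adjusted over all 19938 genes.

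Each of 16 arrays measured RNA from a halved kidney of 1 labelled biological replicate. All mice carried a transgene by which doxycycline induces loss of Vhl in cells of the renal tubule. The study cited for the line describes a Pax8-rtTA driver that also acts in liver, and the genotype label reads wt for mice not given doxycycline. The Control group (n = 3) had no treatment. In the VHL-KO group (n = 3) the mice were given doxycycline, 0.1 mg per 10 g under the skin, and killed 4 days later. In the AKI group (n = 5) they received glycerol at 50% and a dose of 0.05 ml per 10 g into the muscle of the left hind limb, and went without drinking water from 20 h before to 24 h after it. VHL-KO/AKI mice (n = 5) had doxycycline, glycerol and the water withdrawal together. Both sexes were used, with no sex given per animal and no age, and no group received doxycycline without the deletion or water withdrawal without glycerol. The p-values measure the spread between these arrays.

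Cells store surplus fatty acids as triglyceride in lipid droplets, whose surface is coated by perilipins that govern the access of lipases. The lipase ATGL, encoded by Pnpla2, starts the breakdown of the stored triglyceride, and the small proteins encoded by G0s2 and Hilpda restrain it. Proximal tubule cells burn fatty acids as a main fuel, and droplets are known to gather in the tubule when uptake exceeds oxidation. Loss of Vhl stabilises the hypoxia-inducible factors (HIF), and Hilpda and Angptl4 are known targets of HIF, while Plin2, Plin4, Plin5, Angptl4, Cd36 and Pdk4 are known targets of the fatty acid sensing receptors of the PPAR family.

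Promoter sequence was at hand for 8 of the 10 genes, in 10 windows that each run from 250 bases before to 50 bases after a RefSeq start site in the mouse build GRCm38.p6. The HIF core motif, searched as ACGTG or GCGTG on both strands, was present in 6 of the 10 windows, compared with 43.8% of 32851 promoters of the same length. The 2 windows of Plin5 overlap and share a match, as do the 2 of Hilpda. The 6 windows thus stand for the genes Plin2, Plin5, Hilpda and G0s2 only, out of 8. The PPAR motif DR1, searched on both strands as 2 copies of AGGNCA with 1 base (N) between them, was in 0 of the 10 windows and in 0.381% of all promoters. The windows of Plin2 (chr4:86670010-86670309, minus strand) and of the second start site of Hilpda (chr6:29272376-29272675, plus strand) are shown because Plin2 had the largest change of these genes in AKI against control and both windows held 3 matches, the most of the 10. Capitals mark the HIF core or its reverse complement, 5′ to 3′ along the gene.
Plin2: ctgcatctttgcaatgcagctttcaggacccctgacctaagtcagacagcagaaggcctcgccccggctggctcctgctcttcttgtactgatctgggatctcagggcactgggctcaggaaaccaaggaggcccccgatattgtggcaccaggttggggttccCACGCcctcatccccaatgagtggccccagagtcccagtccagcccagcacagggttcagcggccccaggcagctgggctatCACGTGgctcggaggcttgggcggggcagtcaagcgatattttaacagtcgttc
Hilpda: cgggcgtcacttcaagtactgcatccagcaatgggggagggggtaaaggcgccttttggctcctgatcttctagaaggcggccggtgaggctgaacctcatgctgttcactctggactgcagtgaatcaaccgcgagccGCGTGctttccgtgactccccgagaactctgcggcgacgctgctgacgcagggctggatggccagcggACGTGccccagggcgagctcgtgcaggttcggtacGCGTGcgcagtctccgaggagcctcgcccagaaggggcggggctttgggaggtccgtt
The matches of Plin2 began 86, 4 and 3 bases upstream of the start site, and the last pair is 1 palindrome, CACGTG, read on both strands. Those of Hilpda began 111, 43 and 8 bases upstream. A match is a description of letters in the window and not a binding site. Plin5 held 2 matches at its first start site, and the 1 match at its second is the same stretch as 1 of them. Hilpda held 1 at its first start site, the same stretch as the match 111 bases upstream of its second. G0s2 held 1. The windows of Plin3, Plin4, Cd36 and Pnpla2 held none (0 matches).

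Several features of the arrays stand beside the results. Vhl read between 6.35 and 6.70 in the arrays given doxycycline and between 7.01 and 7.36 in the others. Xist, transcribed from the inactive X chromosome, ranged from 10.23 to 11.47 without injury and from 4.16 to 5.08 with it. Averaged over Uty, Eif2s3y and Kdm5d, the Y-linked signal ranged from 7.77 to 8.26 with injury and from 4.81 to 5.01 without, other than in control 3, which read 7.43. Sex-linked signal therefore differed between injured and uninjured arrays, apart from control 3, which held both signals. Injury and sex-linked signal thus coincide in both injury comparisons, for every gene, with control 3 the only exception. AKI 4 stood apart in tubular injury markers, with a mean over 9 genes of 8.71 against 9.95 to 10.41 in the other AKI arrays. Among these arrays it also had the highest HIF target mean of its group, 9.08 against 8.21 to 8.40 in the other AKI arrays, where the VHL-KO arrays had 9.11 to 9.43. VHL-KO 3 was the highest array of its group for 8 of the 10 genes, VHL-KO/AKI 5 for 7, and VHL-KO/AKI 1 was the lowest for 7.

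Injury with intact Vhl asked how these genes respond to the glycerol model. Plin2, Angptl4, Cd36, Plin4 and Pnpla2 rose in AKI against control, 5 of the 10 genes, and 0 fell. All genes on the array were called at 28.1% in this comparison, 13.2% of them higher and 14.9% lower. The median change of the 10 genes was 0.67, against 0.02 for all genes. Because the 10 genes were chosen with earlier results of these data known, such shares and medians describe them and are no test. The same holds for the other comparisons. The groups did not overlap for 5 of the 10 (Plin2, Plin4, Angptl4, Hilpda and Pnpla2), as for 27.3% of all genes. RNA from a piece of kidney cannot tell more RNA per cell from more cells of a type.

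**Figure D1:**
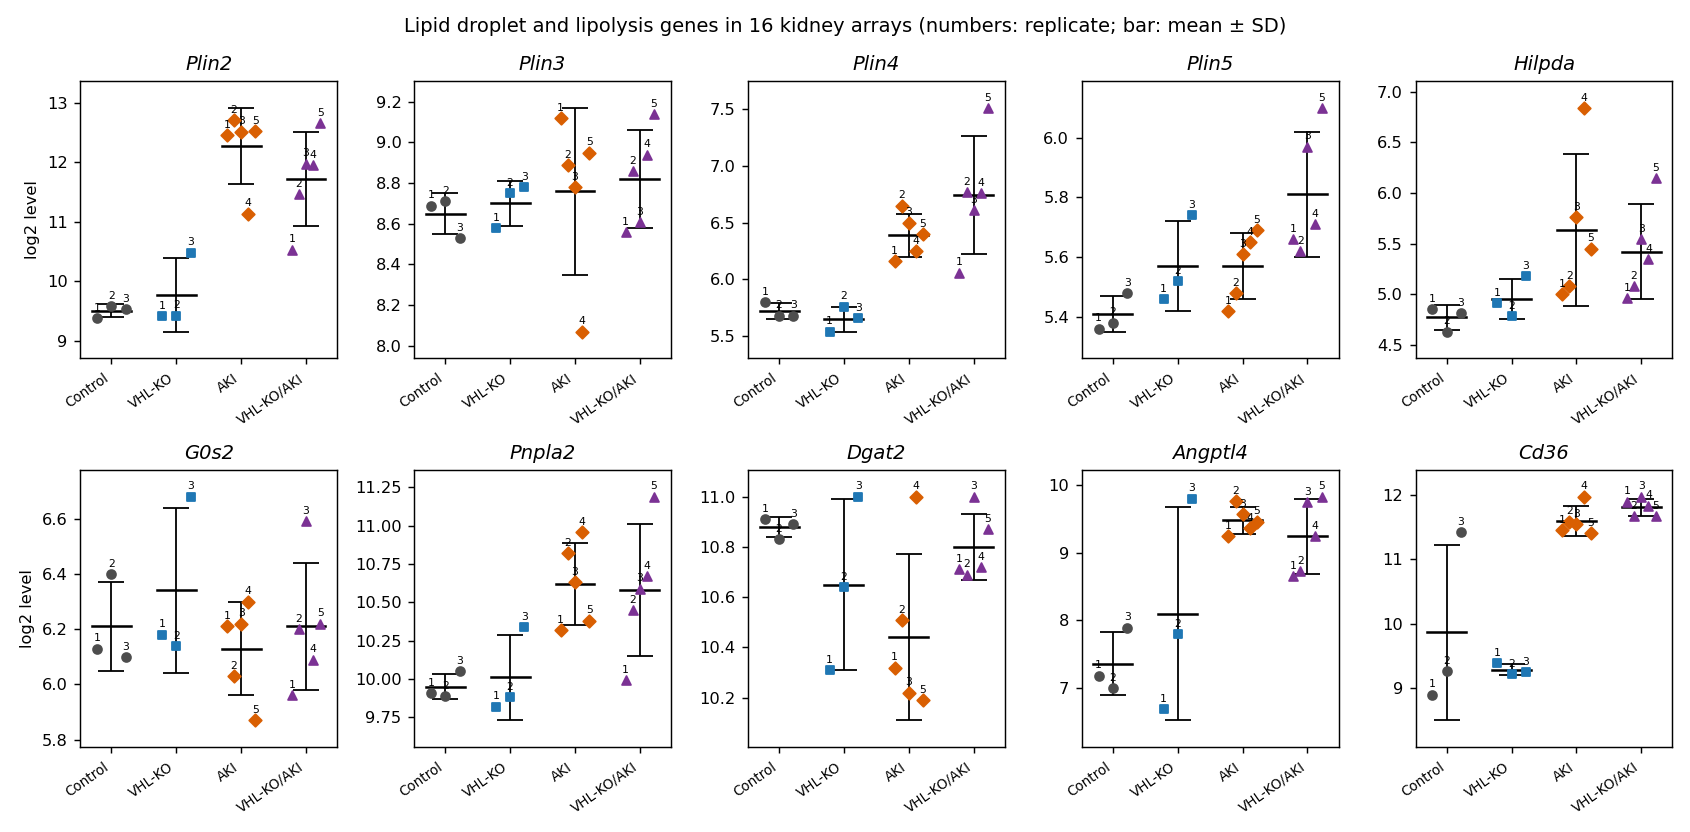
Log2 level of each of the 10 genes in every array, by group, with the replicate number beside each point and the group mean ± SD as bars; each panel has its own axis. Plin2 stands between 11.14 and 12.72 in the AKI arrays and between 9.38 and 9.58 in controls, while Cd36 in control 3, at 11.42, lies with the injured arrays.

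Among the droplet coat genes, Plin2 encodes the perilipin found on droplets of most tissues. Its level was 9.38, 9.58 and 9.53 in controls 1 to 3 and 12.46, 12.72, 12.52, 11.14 and 12.53 in AKI 1 to 5. Every injured array lay above every control, and AKI 4 was the lowest of its group. The mean went from 9.5 ± 0.11 (SD, n = 3) to 12.28 ± 0.64 (n = 5), a 6.85-fold rise (log2 change 2.78, SE 0.421, limma adjusted p = 0.000261). In knockout kidneys Plin2 read 9.41, 9.42 and 10.48 in VHL-KO 1 to 3 and 10.53, 11.47, 11.98, 11.95 and 12.66 in VHL-KO/AKI 1 to 5. The groups did not overlap, though VHL-KO 3 and VHL-KO/AKI 1 nearly met. There Plin2 rose 3.86-fold (log2 change 1.95, SE 0.421, adjusted p = 0.00687).

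Plin4, which coats droplets chiefly in fat and muscle, had a mean near the median of all levels on the array (6.19). The 8 arrays in which it lay above that median were all injured ones, so its uninjured levels were dim. It read 5.80, 5.68 and 5.68 in controls, and 6.16, 6.65, 6.50, 6.25 and 6.4 in AKI 1 to 5. All injured arrays were above all controls, and Plin4 rose 1.59-fold (log2 change 0.67, SE 0.217, adjusted p = 0.0307). This call was lost when any 1 control was left out (adjusted p = 0.0881 without control 3) and without AKI 2, 3 or 5. In the knockout it went from 5.54, 5.76 and 5.66 in VHL-KO to 6.06, 6.77, 6.61, 6.76 and 7.51 in VHL-KO/AKI 1 to 5, again with no overlap. That rise was 2.13-fold (log2 change 1.09, SE 0.217, adjusted p = 0.0042).

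Plin3, a perilipin that moves between cytosol and nascent droplets, differed little between groups. Its means lay between 8.65 and 8.82, and AKI 4 was its lowest array at 8.07. The differences were 0.12 with injury alone (95% interval -0.28 to 0.52) and 0.12 with injury in the knockout (-0.28 to 0.52). Plin5, which tethers droplets to mitochondria in tissues that burn fat, was below the median of all levels in all arrays (0 arrays above it), so its changes rest on dim signal. Its mean was 5.41 ± 0.06 in controls, 5.57 ± 0.15 in VHL-KO, 5.57 ± 0.11 in AKI and 5.81 ± 0.21 in VHL-KO/AKI (SD, n = 3, 3, 5 and 5). The highest arrays were VHL-KO/AKI 5 at 6.10 and VHL-KO/AKI 3 at 5.97, and no comparison passed (adjusted p = 0.166 or more).

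Pnpla2 encodes ATGL, the lipase that removes the first fatty acid from stored triglyceride. It read 9.91, 9.89 and 10.05 in controls and 10.32, 10.82, 10.63, 10.96 and 10.38 in AKI 1 to 5. No injured array fell within the control range, and Pnpla2 rose 1.59-fold (log2 change 0.67, SE 0.214, adjusted p = 0.0283). The call was lost without any 1 of the controls (adjusted p = 0.0549 without control 3) and without AKI 2. In the knockout, Pnpla2 read 9.82, 9.88 and 10.34 in VHL-KO and 9.99, 10.45, 10.59, 10.67 and 11.19 in VHL-KO/AKI 1 to 5. VHL-KO 3 lay above VHL-KO/AKI 1, and the difference of 0.57 (SE 0.214) did not pass (adjusted p = 0.0969). It passed without VHL-KO/AKI 1, at 0.71 (adjusted p = 0.024).

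The inhibitors of ATGL did not pass in any comparison. G0s2, the switch gene whose product binds the lipase directly, had means between 6.13 and 6.34, and its injury differences were -0.09 (95% interval -0.40 to 0.23) and -0.12 (-0.44 to 0.19). Hilpda, a hypoxia-inducible inhibitor of the same lipase, was dim, with 1 of 16 arrays above the median of all levels. That array was AKI 4, at 6.84. Hilpda read 4.85, 4.63 and 4.81 in controls and 5.00, 5.08, 5.76, 6.84 and 5.45 in AKI 1 to 5. Every AKI array was above every control, but the spread within AKI (SD 0.75) was wide and the difference of 0.86 (95% interval 0.13 to 1.59) did not pass (adjusted p = 0.0759). It passed without AKI 1 (adjusted p = 0.042) or without AKI 2 (adjusted p = 0.0488). Without AKI 4 it was 0.55 (adjusted p = 0.0905).

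Dgat2 encodes an enzyme of the final step of triglyceride synthesis. It read 10.91, 10.83 and 10.89 in controls and 10.32, 10.51, 10.22, 11 and 10.19 in AKI 1 to 5. The AKI arrays other than AKI 4 were below all controls, and AKI 4 was above all of them. The difference of -0.43 (95% interval -0.79 to -0.07) did not pass (adjusted p = 0.0708). Without AKI 4 it was -0.57 and passed (adjusted p = 0.00307). The VHL-KO/AKI arrays, at 10.71, 10.69, 11, 10.72 and 10.87, lay above AKI 1, 2, 3 and 5. Their difference from AKI was 0.35 (SE 0.146, adjusted p = 0.205) with AKI 4 and 0.49 without it (adjusted p = 0.0135). The number of all genes called in this comparison also shifted when single arrays were left out.

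Cd36 encodes a membrane receptor that takes up long-chain fatty acids. Its level was 8.89 and 9.26 in controls 1 and 2, 11.42 in control 3, and 11.46, 11.59, 11.55, 11.98 and 11.41 in AKI 1 to 5. Control 3 fell within the AKI range, whereas the other controls lay far below it. The mean went from 9.86 ± 1.37 (SD, n = 3) to 11.60 ± 0.23 (n = 5), a rise of 1.74 (SE 0.383, adjusted p = 0.00331). In the knockout Cd36 read 9.38, 9.21 and 9.24 in VHL-KO and 11.90, 11.68, 11.98, 11.84 and 11.67 in VHL-KO/AKI 1 to 5, a 5.8-fold rise (log2 change 2.54, SE 0.383, adjusted p = 0.000685).

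The Cd36 level followed the Y-linked signal across the arrays. Control 3, the uninjured array with Y-linked signal, lay 2.35 above the mean of the other controls, a 5.09-fold difference with no injury. AKI exceeded control 3 by 0.18 and the other controls by 2.53. The mean of 8 male-biased kidney genes moved the same way. It was 8.75, 8.98 and 11.85 in controls 1 to 3, 8.61 to 8.69 in VHL-KO, 10.90 to 11.91 in AKI and 10.88 to 11.45 in VHL-KO/AKI. Single genes differed, and Odc1 was 11.36 ± 0.32 in controls and 10.99 ± 0.34 in AKI (SD). Of the 8, 2 were called higher in AKI against control and 6 in VHL-KO/AKI against VHL-KO. The shares of all genes called higher there were 13.2% and 4.66%. The part of injury and the part of sex-linked signal in the knockout comparison of Cd36 cannot be told apart, since no VHL-KO array held Y-linked signal.

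In Plin2, Plin4 and Pnpla2 control 3 lay close to the other controls. It differed from the mean of controls 1 and 2 by 0.05 in Plin2, -0.07 in Plin4 and 0.15 in Pnpla2, against AKI minus control 3 of 2.74, 0.71 and 0.57. Control 3 is a single array that also held Xist (10.23), so the part of sex-linked signal in these changes was not tested. The knockout comparison has no uninjured array with Y-linked signal.

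**Figure D2:**
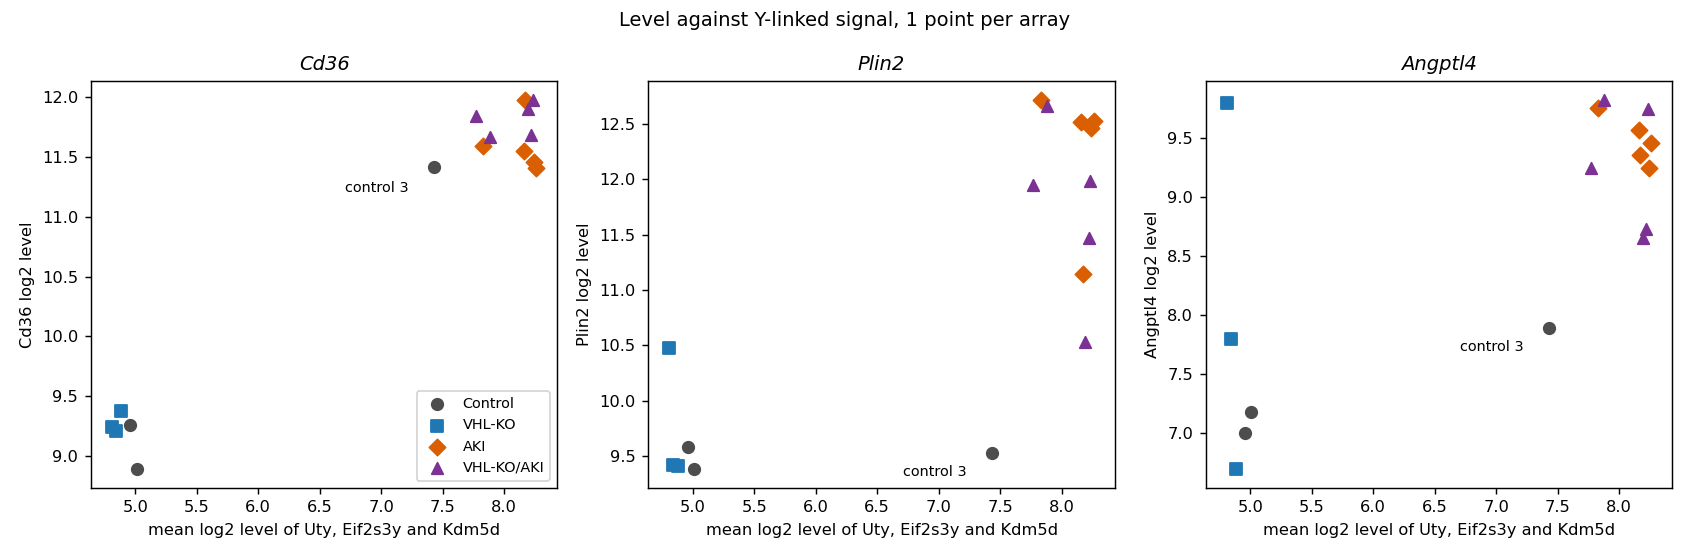
Log2 level of Cd36, Plin2 and Angptl4 against the mean log2 level of Uty, Eif2s3y and Kdm5d, 1 point per array, coloured by group. In the Cd36 panel control 3 lies at 11.42 beside the injured arrays, while in the Plin2 panel it lies at 9.53 with the other controls.

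Angptl4 encodes a secreted protein that blocks lipoprotein lipase and so limits the release of fatty acids from circulating lipoproteins. It read 7.18, 7 and 7.89 in controls and 9.25, 9.76, 9.57, 9.36 and 9.46 in AKI 1 to 5. All AKI arrays were above all controls, with a 4.36-fold rise (log2 change 2.12, SE 0.495, adjusted p = 0.00482). Control 3 lay 0.80 above the other controls, and AKI exceeded it by 1.59. VHL-KO spanned the widest range of any group for this gene, at 6.69, 7.80 and 9.80. VHL-KO/AKI 1 to 5 read 8.65, 8.73, 9.75, 9.25 and 9.83, so that VHL-KO 3 was above 4 of these 5. The difference of 1.14 (95% interval 0.09 to 2.20) did not pass (adjusted p = 0.148), whereas without VHL-KO 3 it was 2.00 and passed (adjusted p = 0.00422).

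**Figure D3:**
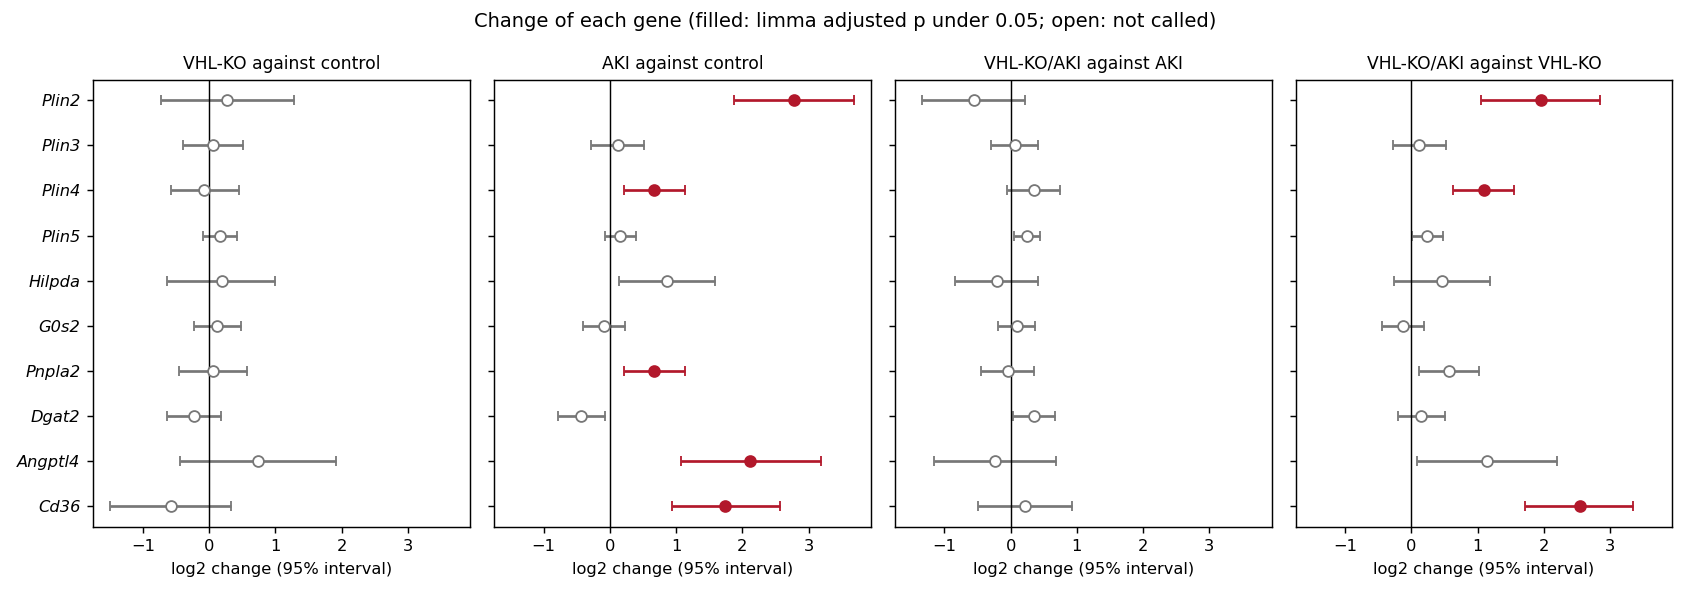
Log2 change with its 95% interval for each of the 10 genes in 4 comparisons; filled red points passed an adjusted p under 0.05 in limma and open points did not. Filled points appear in the injury panels, for 5 genes in AKI against control and 3 in VHL-KO/AKI against VHL-KO, and in neither panel of the Vhl deletion.

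In the knockout background, injury was followed by a rise of Plin2, Plin4 and Cd36, 3 of the 10 genes, and a fall of 0. No VHL-KO array held Y-linked signal, and all VHL-KO/AKI arrays did. Injury and sex-linked signal therefore cannot be told apart for any gene in this comparison. Over all genes 13.6% were called in VHL-KO/AKI against VHL-KO, 4.66% higher and 8.91% lower. The groups did not overlap for the same 3 of the 10 genes, as for 24.3% of all genes. The median change was 0.52, against -0.01 for all genes. For Plin2 the injury change was 0.83 smaller in knockout than in intact kidneys, but the interaction did not pass (-0.83, 95% interval -2.10 to 0.44, adjusted p = 0.639). Interactions of 0 of the 10 genes passed in limma, against 0.01% of all genes, and 1 had an unadjusted p under 0.05 (Dgat2, 0.58, adjusted p = 0.356). Without AKI 4 the Dgat2 interaction was 0.72 and passed (adjusted p = 0.047). The number of interactions called over all genes also shifted when single arrays were left out.

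Vhl deletion alone changed 0 of the 10 genes by the limma call, and 0 had an unadjusted p under 0.05. Over all genes 0.527% were called in VHL-KO against control. Angptl4 had the largest difference, 0.74 (95% interval -0.44 to 1.92, adjusted p = 0.813), and its sign turned without VHL-KO 3 (-0.11). Hilpda differed by 0.19 (95% interval -0.63 to 1.00) and Plin2 by 0.27 (-0.73 to 1.28), or -0.08 without VHL-KO 3. Cd36 differed by -0.58 (95% interval -1.49 to 0.33) with control 3 and by 0.20 without it. These intervals include 0 and do not show that the genes stayed level. This comparison shares its controls with AKI against control.

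VHL-KO 3 carried most of what stood out in the uninjured knockout. It exceeded the mean of VHL-KO 1 and 2 by 2.56 in Angptl4 (5.88-fold), 1.07 in Plin2, 0.52 in G0s2, 0.52 in Dgat2, 0.49 in Pnpla2 and 0.34 in Hilpda. Its Cd36 and Plin4 differed from theirs by -0.05 and 0.01. The same array read 12.32 in Pdk4, a PPAR target that restrains glucose oxidation, against a mean of 8.88 in the other VHL-KO arrays. Among HIF targets it was higher by 0.73 in Egln3, 0.67 in Adm and 0.19 in Pfkl. Ucp1, the defining gene of brown fat, was 2.41 higher in it. The part of any of these in the Angptl4 and Plin2 values of VHL-KO 3 was not tested.

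In injured kidneys the deletion again changed 0 of the 10 genes, where 3.88% of all genes were called in VHL-KO/AKI against AKI. The groups overlapped in all 10, whereas 3.78% of all genes did not overlap. Unadjusted p was under 0.05 for 2 genes, Plin5 (0.24, 95% interval 0.05 to 0.44, adjusted p = 0.168) and Dgat2. Plin2 was lower by 0.56 on average (-0.56, 95% interval -1.34 to 0.22, adjusted p = 0.451), or by 0.84 without AKI 4 (-0.84, adjusted p = 0.112). Angptl4 (-0.24), Hilpda (-0.21), Pnpla2 (-0.04), Cd36 (0.21) and Plin4 (0.35) had intervals that include 0. The sign for Hilpda turned without AKI 4 (0.09).

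HIF target genes rose with the deletion in the same arrays. In VHL-KO against control 14 of 27 rose and 0 fell (median 0.83), and in VHL-KO/AKI against AKI 18 rose and 0 fell (median 0.62). Of all genes 0.476% and 2.48% rose in these comparisons. Adm, encoding the vasodilator adrenomedullin, rose by 2.31 and 0.68, and Egln3, which hydroxylates HIF, by 2.11 and 2.67. The glycolytic enzyme gene Pfkl rose by 2.02 and 2.27. Car9, a carbonic anhydrase, rose by 2.70 in injured kidneys and differed by 0.35 in uninjured ones (adjusted p = 0.908). With injury alone 5 of the 27 rose and 4 fell (median -0.08), where 13.2% of all genes rose and 14.9% fell. The stress gene Ddit4 was up by 1.96, Adm up by 1.63 and Pdk1 at -1.07. In the knockout 2 rose and 3 fell (median -0.13), with Car9 up by 1.87, the lactate exporter gene Slc16a3 up by 0.81 and P4ha1 at -0.75. Of all genes 4.66% rose and 8.91% fell there, so these counts lie near the shares of all genes. Hilpda and Angptl4, which are known HIF targets and were kept out of this list, did not pass in either deletion comparison.

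**Figure D4:**
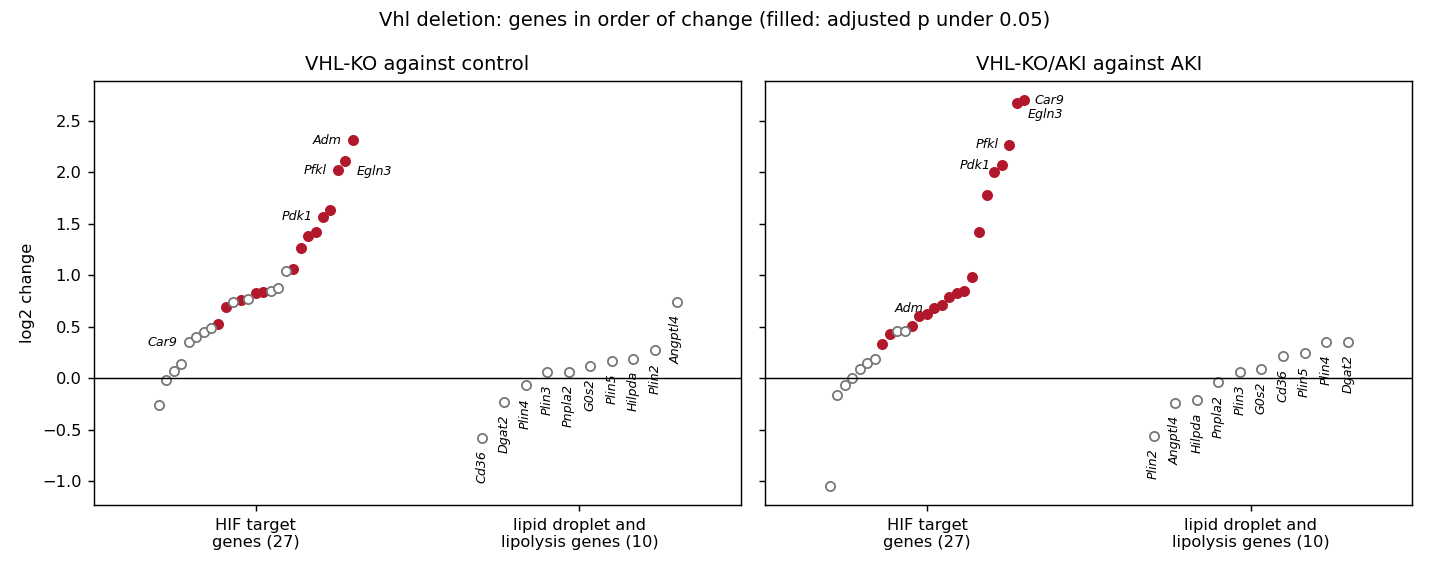
Log2 change with Vhl deletion in uninjured (left) and injured (right) kidneys for 27 HIF target genes and the 10 lipid droplet and lipolysis genes, each ordered by change; filled points passed an adjusted p under 0.05. HIF targets reach 2.31 on the left and 2.70 on the right, while the points of the 10 genes are all open circles, between -0.58 and 0.74 and between -0.56 and 0.35.

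Other genes of droplet coat and assembly were split after injury. In AKI against control 3 of 15 rose and 5 fell, and 7 did not pass (median -0.10), where 13.2% of all genes rose and 14.9% fell. Cidec, whose product fuses droplets, rose from 5.90 ± 0.65 to 9 ± 0.49 (SD, n = 3 and 5), a change of 3.09 (adjusted p = 0.000119). Fabp4, a cytosolic carrier of fatty acids in fat cells, macrophages and endothelium, rose by 1.83, and Plin1, the coat protein of fat cell droplets, by 1.14. Fitm1, which aids droplet budding, fell by 1.69, and Bscl2, encoding seipin, fell by 0.68. With injury in the knockout, Cidec rose by 3.23 and Plin1 by 1.26, 0 fell and 13 did not pass, where 4.66% of all genes rose and 8.91% fell. With Vhl deletion 0 of 15 passed in either background, with Fabp4 at 1.35 in uninjured kidneys (adjusted p = 0.0848) and Bscl2 at 0.43 in injured ones. In uninjured kidneys the genes with the smallest p in the lists of uptake, PPAR, triglyceride synthesis and fatty acid synthesis genes were Fabp5 (0.81, adjusted p = 0.0813), Acot2 (0.74, adjusted p = 0.223), Agpat5 (0.31, adjusted p = 0.491) and Elovl1 (-0.29, adjusted p = 0.471).

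Lipolysis genes and their regulators moved both ways. In AKI against control 5 of 16 rose and 3 fell, and 8 did not pass (median 0.22), where 13.2% of all genes rose and 14.9% fell. Abhd5, the coactivator of ATGL, rose by 0.49 with injury alone and by 0.45 in the knockout. Ubxn4, which acts in the turnover of proteins of the endoplasmic reticulum, rose by 1.17, and Lipa, the lysosomal lipase, fell by 0.78. Lmf1, which matures lipoprotein lipase, fell by 0.88, and Mgll, the monoglyceride lipase, by 0.73. With injury in the knockout 4 rose and 1 fell (median 0.06), where 4.66% of all genes rose and 8.91% fell. The carboxylesterase genes Ces1f and Ces1d were up by 2.01 and at -0.81, and Ubxn4 was up by 0.75. Ces1f read 9.58 to 10 in VHL-KO, 11.28 to 12.11 in VHL-KO/AKI, and 9.96, 10 and 12.32 in controls 1 to 3. Control 3, uninjured and with Y-linked signal, thus lay above all VHL-KO/AKI arrays, and the parts of injury and of sex-linked signal in this rise cannot be told apart.

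On the lipoprotein side of this list, Gpihbp1 was called with Vhl deletion in both backgrounds and Lmf1 in injured kidneys only. Gpihbp1, which holds lipoprotein lipase on the capillary wall, went from 7.32 ± 0.24 to 8.32 ± 0.22 (SD, n = 3 and 3), a rise of 1.01 (adjusted p = 0.00349), and was the only 1 of 16 to pass in VHL-KO against control. Markers of endothelium stood beside it, with a median difference of 0.55 over 10 genes, 0 of them called, and list means of 9.57 to 9.85 in VHL-KO against 9.10 to 9.21 in controls. Their part in the Gpihbp1 value was not tested. In injured kidneys Gpihbp1 rose by 0.49 and Lmf1 by 0.57, 2 of 16 (median 0.00).

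Triglyceride synthesis genes changed in both directions after injury. In AKI 2 of 15 rose and 4 fell, and 9 did not pass (median -0.04), where 13.2% of all genes rose and 14.9% fell. Lpin3, a phosphatidate phosphatase, rose by 0.99 and Agpat2 by 0.52, while Mogat2 fell by 0.89, Agpat1 by 0.54 and Gpam, the first acyltransferase of the pathway, by 0.53. In the knockout 3 rose and 0 fell (median -0.03), where 4.66% of all genes rose and 8.91% fell. Lpin3 rose by 1.13, Mogat1 by 1.01 and Agpat2 by 0.72. Mogat1 read 9.36 to 10.02 in VHL-KO and 10.62 to 10.85 in VHL-KO/AKI. Among controls it read 9.5, 9.66 and 10.72, with control 3 inside the VHL-KO/AKI range, so injury and sex-linked signal cannot be told apart here either. With the deletion 0 of 15 passed in either background, with Gpam at 0.43 in injured kidneys.

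Of 16 fatty acid synthesis genes 0 rose and 9 fell in AKI, and 7 did not pass (median -0.51), where 14.9% of all genes fell. Tubule markers fell in the same arrays, 10 of 13 for the proximal tubule (median -1.33) and 5 of 6 for the thick ascending limb (median -2.02), and their part in the falls of lipid genes was not tested. The desaturase genes Fads2, Fads1 and Scd2 fell by 1.70, 1.16 and 0.94, and Fasn, fatty acid synthase, by 0.66. In the knockout 0 rose and 4 fell (median -0.25), where 4.66% of all genes rose and 8.91% fell. The elongase genes Elovl6 and Elovl5 were at -1.48 and -0.62 and Fads2 at -1.09. With Vhl deletion Elovl6 fell by 0.56 in injured kidneys, 1 of 16, and 0 of 16 passed in uninjured ones. Of 15 other uptake and activation genes 1 rose and 8 fell in AKI (median -0.63). Fabp7 fell by 2.52, and the acetate activating enzyme genes Acss1 and Acss2 by 2.04 and 1.63, whereas Acsl4, which activates arachidonic acid, rose by 1.21. In the knockout Acsl4 rose by 0.75, Acss1 fell by 1.70 and the fatty acid carrier gene Fabp5 by 1.19, and the other 12 did not pass (median 0.00).

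Vldlr, the receptor for very low density lipoproteins and a known HIF target, was called with Vhl deletion in injured kidneys. It was 9.44 ± 0.04 in controls, 9.95 ± 0.13 in VHL-KO, 8.59 ± 0.31 in AKI and 9.54 ± 0.04 in VHL-KO/AKI (SD, n = 3, 3, 5 and 5). It fell by 0.85 in AKI against control (adjusted p = 0.000298) and rose by 0.95 in VHL-KO/AKI against AKI (adjusted p = 0.000411), the only 1 of 15 uptake genes to pass there. In uninjured kidneys 0 of the 15 passed, and the VHL-KO arrays of Vldlr, 9.86 to 10.10, lay above the controls, 9.40 to 9.47 (adjusted p = 0.217). Some tubule markers also rose in VHL-KO/AKI against AKI, 2 of 6 for the thick ascending limb (median 1.20) and 3 of 11 for the collecting duct (median 0.40). For the proximal tubule 0 of 13 passed (median -0.12), and for the distal convoluted tubule 0 of 5 (median 0.31). Of all genes 2.48% rose there. The part of tubule markers in the Vldlr change was not tested.

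PPAR receptors, coactivators and targets went both ways after injury, with 5 of 21 up, 5 down and 11 not passing (median 0.12). Of all genes 13.2% rose and 14.9% fell in AKI against control. Pdk4 rose by 3.37 (adjusted p = 0.00432) and Pparg, the receptor of fat cells, by 0.91. Ppara, the receptor that drives fatty acid oxidation, fell by 0.93, its coactivator gene Ppargc1a by 1.33, and Cyp4a14, a fatty acid hydroxylase gene and PPAR target, by 2.38. In VHL-KO/AKI against AKI, Cyp4a14 rose by 2.12 (adjusted p = 0.0254) and Ppara by 0.92 (adjusted p = 0.0159), and the other 19 did not pass. Of all genes 2.48% rose there, and the part of tubule markers in these rises was not tested. In uninjured knockouts 0 of 21 passed (median 0.17), and with injury in the knockout 2 rose (Pparg by 0.90 and Cpt2, an enzyme of fatty acid import into mitochondria, by 0.57) and 2 fell, Ppargc1a by 0.98 and Ppargc1b by 0.51. These counts stand beside 4.66% of all genes rising and 8.91% falling in VHL-KO/AKI against VHL-KO.

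Other cell types and injury markers moved in the same arrays. In AKI against control 7 of 9 neutrophil markers rose (median 0.87), 8 of 9 tubular injury markers rose (median 2.86) and 10 of 13 proximal tubule markers fell. Of all genes 13.2% rose and 14.9% fell there. The part of these markers in the changes of the 10 genes was not tested. Of 11 white fat markers measured, 6 rose and 1 fell in AKI against control (median 0.67), 6 rose and 0 fell in VHL-KO/AKI against VHL-KO (median 0.69), and 0 passed in VHL-KO against control. In VHL-KO/AKI against VHL-KO 4.66% of all genes rose and 8.91% fell. Cidec and Plin1 belong to the white fat list too. Adipoq, which defines fat cells, was 6.03 ± 0.54 in controls, 5.91 ± 0.38 in VHL-KO, 7.74 ± 0.87 in AKI and 8.51 ± 0.69 in VHL-KO/AKI (SD, n = 3, 3, 5 and 5). The list mean ranged from 6.63 to 7.15 in controls, 6.63 to 7.05 in VHL-KO, 7.20 to 8.49 in AKI and 7.45 to 8.29 in VHL-KO/AKI. Summed on the linear scale and given as log2, the list ranged from 12.14 to 12.45 in controls and 11.81 to 13.48 in AKI. It ranged from 12.54 to 13.07 in VHL-KO and 12.86 to 13.57 in VHL-KO/AKI. Pck1 had the highest mean of the list in controls (11.87 ± 0.16), VHL-KO (12.49 ± 0.29) and VHL-KO/AKI (12.16 ± 0.29, SD). On average it thus weighs most in the sums of these groups. Pck1 was also the gene that fell in AKI (10.83 ± 0.57, SD). The lowest of the defining markers was Lep, encoding leptin, at 4.71 ± 0.03 in controls, and array levels have no true 0. Of 8 brown fat markers 2 rose and 1 fell in AKI, and Ucp1 reached 10.21 in AKI 4.

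The mean of the fat hormone genes Adipoq, Retn and Lep was 5.67, 6.38 and 5.62 in controls and 5.63, 5.78 and 5.96 in VHL-KO. It was 6.45, 7.21, 7.34, 7.97 and 7.07 in AKI 1 to 5 and 6.66, 7.88, 7.84, 7.47 and 7.59 in VHL-KO/AKI 1 to 5. All injured arrays lay above all uninjured ones, and the lowest of each injured group, AKI 1 and VHL-KO/AKI 1, were also its lowest arrays in Plin4 and Pnpla2. The order differed at the top. AKI 4, highest of its group in this mean, was also highest in Pnpla2 (10.96) but second lowest in Plin4 (6.25). VHL-KO/AKI 2, highest of its group in this mean, read 6.77 in Plin4 and 10.45 in Pnpla2. VHL-KO/AKI 5 read more in both (7.51 and 11.19). In Plin2, AKI 1 was the second lowest of its group (12.46, with AKI 4 at 11.14) and VHL-KO/AKI 1 the lowest (10.53 against 11.47 to 12.66). With this mean as a covariate, an alternative added after seeing the data, the AKI change of Plin2 was 2.62 and passed (adjusted p = 0.0135), as did Cd36 at 1.84 (adjusted p = 0.0458). Pnpla2 then differed by 0.13 (adjusted p = 0.818), Plin4 by 0.32 (adjusted p = 0.57), Hilpda by -0.04 (adjusted p = 0.967) and Angptl4 by 1.68 (adjusted p = 0.148). Dgat2 was -0.80 and passed (adjusted p = 0.0265). The 3 calls of VHL-KO/AKI against VHL-KO were lost, with Plin2 at 1.75 (adjusted p = 0.22), Plin4 at 0.64 (adjusted p = 0.366) and Cd36 at 2.66 (adjusted p = 0.0506). The covariate differs between injured and uninjured arrays throughout, so it also takes up part of the injury difference.

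**Figure D5:**
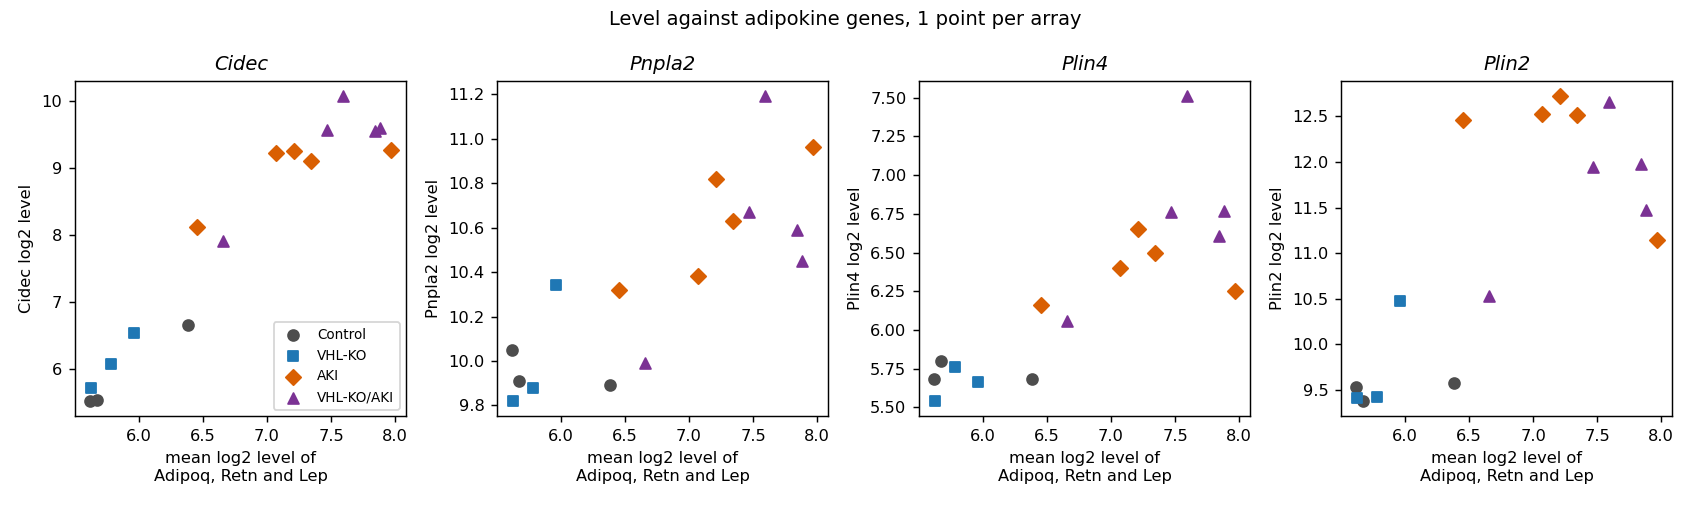
Log2 level of Cidec, Pnpla2, Plin4 and Plin2 against the mean log2 level of Adipoq, Retn and Lep, 1 point per array, coloured by group. VHL-KO/AKI 5, at 7.59 on the horizontal axis, is the highest of its group in Pnpla2 (11.19) and Plin4 (7.51), although VHL-KO/AKI 2 lies further right (7.88). AKI 1, at 6.45 on the horizontal axis, is the lowest of its group in Cidec (8.12) and Pnpla2 (10.32) and the second lowest in Plin2 (12.46), below which lies AKI 4 (11.14, at 7.97 on that axis); VHL-KO/AKI 1, at 6.66, is the lowest of its group in Plin2 (10.53).

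The genes whose centred levels lay closest to each changed member over the 16 arrays differed between members. Closest to Plin2 were Tnfrsf12a, the receptor of the injury cytokine TWEAK, with a mean absolute difference of 0.254, Prrg4 (0.279) and Cd14 (0.287), a receptor for bacterial lipopolysaccharide. Cd36 had Cyp2d9 (0.248), a gene of the male-biased list, Azgp1 (0.276) and Ugt2b37 (0.286). Closest to Pnpla2 were Lipe (0.14), the hormone-sensitive lipase gene of the white fat list, Rgcc (0.143) and Scarb2 (0.146). Plin4 had Prg4 (0.139), Mad2l2 (0.187) and Rbm11 (0.188), and Angptl4 had Sgtb (0.367), Map3k6 (0.39) and Aldh1a7 (0.417). Smaller differences are easier to reach for genes that vary little, so these distances do not compare members with each other.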

How the data were processed

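Kidney RNA from 16 mice was hybridised to single-colour whole-transcript arrays. The deposited values are log2 probe set levels made by the authors, and the submitters' processing notes name Partek 6.4 and RMA, which corrects background and summarises probes. No source used here gives the settings or the genome build. Of 35556 rows, 21789 had exactly 1 gene symbol in the probe table, and the row with the highest mean stood for each of 19938 genes. Array medians lay between 5.92 and 6.03, and no pair of arrays was identical (0 pairs). The number of arrays limits the precision.

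Groups came from the sample titles. A single limma fit (version 3.58.1, R 4.3.3) held all 4 groups, with a mean for each and 12 residual degrees of freedom; tests were 2-sided, with Benjamini-Hochberg adjustment over all genes, and the script was tested on simulated data. Errors of group means are SDs, and those of changes are standard errors of the fit.

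The 10 genes, the 7 pathway lists and the 15 marker lists were chosen with earlier results of these data known. Named are all 10 genes and, from each list and comparison, up to 3 called genes with the largest change or, where none was called, the gene with the smallest p. List genes outside this rule, named after their values were seen, are Plin1, Bscl2, Abhd5, Mgll, Agpat2, Gpam, Fasn, Acsl4, Vldlr, Pparg and Ppara in AKI against control, Abhd5 and Ppargc1b in VHL-KO/AKI against VHL-KO, Car9 and Vldlr in VHL-KO against control and Adm in VHL-KO/AKI against AKI. Neighbours are the 3 genes with the smallest mean absolute difference after centring. Distances, promoters and marker levels were computed from the same values and from RefSeq sequence. Alternatives covered row choice, a filter on dim genes, scaling, the variance model, array weights, the groups fitted, the replicate number, a 2-fold threshold and each array left out. The replicate numbers were not taken as pairs, since 3 of 20 same-numbered pairs of arrays had deviations that correlated over 0.1 (r from -0.381 to 0.204).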

Additional observations from a re-analysis of the deposited data

Results flagged for a closer look

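Plin2 in AKI 4 was 11.14, and the next lowest AKI array was 12.46. This gap was 0.839 of the range of the group, above the Dixon limit of 0.71 for 5 arrays. It was the only 1 of 20 gene and group combinations to pass the limit, and chance passes about 1 in 20. In the same array Dgat2, Pnpla2, Hilpda, Cd36 and G0s2 were the highest of their group. AKI 4 also stood apart in marker means. Tubular injury markers read 8.71 against 9.95 to 10.41 in the other AKI arrays, and proximal tubule markers 11.64 against 10.13 to 10.78. White fat markers read 8.49 against 7.20 to 7.80. The part of these in its gene values was not tested.

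Cd36 differed from its uninjured and injured reference groups in opposite directions with Vhl deletion. All 3 VHL-KO arrays lay below the control mean (-0.58 on average) and all 5 VHL-KO/AKI arrays above the AKI mean (0.21). The opposite directions as such were not tested, and the interaction in limma did not pass (0.79, adjusted p = 0.617). Without control 3 the uninjured difference was 0.20.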

How the results depend on the processing

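The 8 calls were recomputed under up to 28 alternatives each. Plin2 in AKI against control passed in all 28 (2.62 to 3.08). There Cd36 was lost in 1 (control 3 as the only control), Angptl4 in 2, Pnpla2 in 9 and Plin4 in 11. With injury in the knockout, Plin2, Plin4 and Cd36 were each lost in 1 of 27, the adipokine covariate. No call reversed, and 20 changes not called as reported turned sign under some alternative. The count of the 10 genes called in AKI against control was 5, and 3 with a replicate block, at a 2-fold threshold and with the adipokine covariate, 1 with control 3 as the only control, and 3 to 6 with 1 array left out. For the deletion in injured kidneys it was 0, 1 with array weights, 2 without control 3, VHL-KO 3 and AKI 4 together, and 0 to 1 with 1 array left out. For injury in the knockout it was 3, 0 with the adipokine covariate and 3 to 4 with 1 array left out, and the interaction count was 0, and 0 to 1. The adipokine covariate, the lone control and the joint removal of 3 arrays were chosen after seeing the data. With the lone control, that array is assumed to vary like the other groups. Under the replicate block, the Plin4 and Pnpla2 changes in AKI against control were 0.56 (adjusted p = 0.0644) and 0.54 (adjusted p = 0.0708), and it changed no other call of these genes. The filter on dim genes left 10591 genes and removed Plin5 and Hilpda. It kept Plin4 only through injured arrays, so passing under this filter adds nothing for the Plin4 calls. Over all genes, 105 were called in VHL-KO against control, 60 after median centring, 319 with array weights, 65 with a replicate block, 39 at 2-fold, 30 without the 3 arrays and 34 to 235 with 1 array left out. In AKI against control, 5600 became 1094 at 2-fold, 1292 with the lone control and 3517 with the covariate. For VHL-KO/AKI against AKI, 774 became 2868 with array weights, 223 with these groups alone, 91 at 2-fold, 2076 without the 3 arrays and 229 to 2384 with 1 left out. For VHL-KO/AKI against VHL-KO, 2705 became 4328 with array weights, 447 at 2-fold, 697 with the covariate and 1683 to 3910 with 1 left out. The interaction count of 2 became 1 after quantile scaling and with the block, 885 with array weights, 22 without the 3 arrays and 0 to 620 with 1 left out. The cause of these shifts was not tested. Plin5 and Hilpda lie near background, so their small changes are among the least certain. Plin4 was also dim in the uninjured arrays (5.54 to 5.80, against a median of all levels of 6.19), and its call in AKI against control was the most often lost.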
